A study of Mus musculus with 11 samples.

Results

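Fos, Fosb, Egr2, Egr3, Klf2 and Klf4 are immediate-early transcription factor genes, and they were taken by symbol from the deposited expression table of a mouse spleen dendritic cell study. They are 6 of the 417 genes with a row in that table. The cells came from C57BL/6J mice with 1 mutant allele of uromodulin, a kidney protein that also circulates in blood, and from wild type littermates (libraries 1 to 6). The mutant allele carries phenylalanine in place of a cysteine, written C105F or C106F in the labels, and the heterozygous group is named C105F/+ below (libraries 2 to 6). The change was made with CRISPR in embryos, the mice were 12 to 16 weeks old, and the labels give no sex, batch, day, kidney injury or treatment for a mouse and do not say how many founder lines were used. The series asks how mutant uromodulin bears on dendritic cells and, through them, on repair of the injured kidney. Spleens of both groups spent 30 min at 37 °C in 2 mg/ml collagenase IV, and dendritic cells were kept by magnetic removal of other cells; the labels give no digestion or handling time for a single library. In the authors' own test between the genotypes, no row of the table had a fold under 2 in either direction (smallest 2.00) or an unadjusted p over 0.05 (largest 0.0493). All 6 genes were therefore chosen by the authors for a higher level in C105F/+, and the genotype differences below are descriptions of selected rows.

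Immediate-early genes are transcribed within minutes of a signal at the cell surface, from transcription factors that are already present, and their messages are short-lived. Serum response factor bound to CArG boxes, CREB bound to cAMP response elements and MEF2 factors are the best known of these. FOS and FOSB pair with JUN proteins to form AP-1. EGR2 and EGR3 are zinc finger factors known in lymphocytes for limiting the response to antigen receptor signals. KLF2 and KLF4 are Krüppel-like zinc finger factors, known for quiescence and trafficking of lymphocytes and for the state of endothelium and of monocytes.

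The genes lie on 6 chromosomes, and none overlaps another gene in the GENCODE annotation of GRCm38, the build called mm10 in the submitters' processing notes. Fos (Entrez 14281) spans chr12:85473890-85477273 on the plus strand, and Fosb (14282) spans chr7:19302696-19310051 on the minus strand. Egr2 (13654) lies at chr10:67535475-67542188 and Egr3 (13655) at chr14:70077203-70082614, both on the plus strand. Klf2 (16598) lies at chr8:72319033-72321656 on the plus strand and Klf4 (16600) at chr4:55527143-55532466 on the minus strand.

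The stretches before the starts of these genes are shown where they hold motifs of the factors named above. RefSeq promoter windows (GRCm38.p6, the 250 bases upstream of a start, both strands searched) matched 5 of the 6 genes, all but Egr3. There were 5 alternative starts for Egr2. Capitals mark the motif, and each sequence is written 5′ to 3′ on the strand of its gene.
Egr2, CArG box, chr10:67537484-67537513, plus strand: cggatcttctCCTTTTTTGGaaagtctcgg
Egr2, CArG box of a downstream start, chr10:67537787-67537816, plus strand: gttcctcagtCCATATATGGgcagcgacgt
Fos, TGACG, chr12:85473811-85473840, plus strand: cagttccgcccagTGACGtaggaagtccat
Klf2, MEF2 motif, chr8:72318934-72318963, plus strand: tataccgcggCTAAATTTAGgctgagcccg
Fosb, GCGGGGGCG, chr7:19310077-19310106, minus strand: gtgacgcaagcGCGGGGGCGggtcccggag
Klf2, GCGGGGGCG, chr8:72318852-72318881, plus strand: ggggcccggccGCGGGGGCGgggcttgagg
Klf4, GCGGGGGCG read on the opposite strand, chr4:55532651-55532680, minus strand: cgcccctccctCGCCCCCGCccccacgtgc
Within the 250 bases searched, a CArG box was found before Egr2 alone among the 5 genes, and 1.47% of all 32851 windows hold one. Egr2 had 5 of the 9 windows of these genes, so it had more chances of a match. Motifs further upstream were not searched for. The MEF2 motif was found before Klf2 alone, against 2.92% of windows. TGACG, the core of a cAMP response element, stood before all 5 genes and in 17.8% of windows, and the full palindrome TGACGTCA, which holds TGACG, before none of them and in 1.55%. GCGGGGGCG, a form of the EGR recognition motif, stood before Fosb, Klf2 and Klf4 and in 2.57% of windows, and GCGTGGGCG before none and in 0.536%. The AP-1 motif TGACTCA was in 4.46% of windows and in none of these genes' windows. These are matches of letters, and binding was not measured in these data.

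Size factors recovered from the authors' means, which give relative depth, ran from 0.615 (wild type 1) to 1.98 (C105F/+ 2). Counts over the 417 rows ran from 195414 to 1198500 in the same libraries, and counts of the 6 genes from 1441 in wild type 4 to 180904 in C105F/+ 2. Wild type 4 stood apart from the other wild type libraries at a size factor of 0.955. Among 236 rows with a mean of at least 50 scaled counts (counts divided by size factors), 36 were over 4-fold lower and 43 over 4-fold higher in wild type 4 than the median of the other wild type libraries. In each of the other 5 wild type libraries, 0 to 10 rows were that much lower and 0 to 2 that much higher. Genotype comparisons below are given with and without wild type 4. Umod has no row and gave no check of the genotype, and of 30 dendritic cell markers only Itgae and Pacsin1 have rows. Itgax, Flt3 and Zbtb46 were not analysed here, so the cell type label could not be checked against them.

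Per unit of gene length, Fos was the most abundant of the 6 messages and the EGR pair the least. The median level over the 6 wild type libraries was 138 FPKM (a unit scaled by gene length and library size, made by the authors) for Fos, 51.7 for Fosb, 42.0 for Klf2, 18.3 for Klf4, 9.84 for Egr3 and 7.87 for Egr2. In C105F/+ the medians of the 5 libraries were 369, 175, 107, 59.4, 19.2 and 19.98 FPKM in the same order of genes. Fos was above Fosb, Klf2 above Klf4 and Klf4 above Egr3 in 6 of 6 wild type libraries, but 0 of 5 neighbouring pairs passed. For these 3 pairs the exact sign-flip permutation p was 0.0313, the smallest that 6 libraries allow, and 0.0521 after Benjamini-Hochberg adjustment over the 5 pairs. Fosb and Klf2 exchanged places, with Fosb higher in 3 of 6 wild type libraries (exact permutation p = 0.875). Egr3 and Egr2 also did so, with Egr3 higher in 4 of 6 (exact permutation p = 0.844). In all 5 C105F/+ libraries the order began with Fos, Fosb, Klf2 and Klf4. There the exact test cannot go below 0.0625. Over all 11 libraries, a set chosen after the data were seen, the 3 constant pairs passed (exact permutation, adjusted p = 0.00163).

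**Figure D1:**
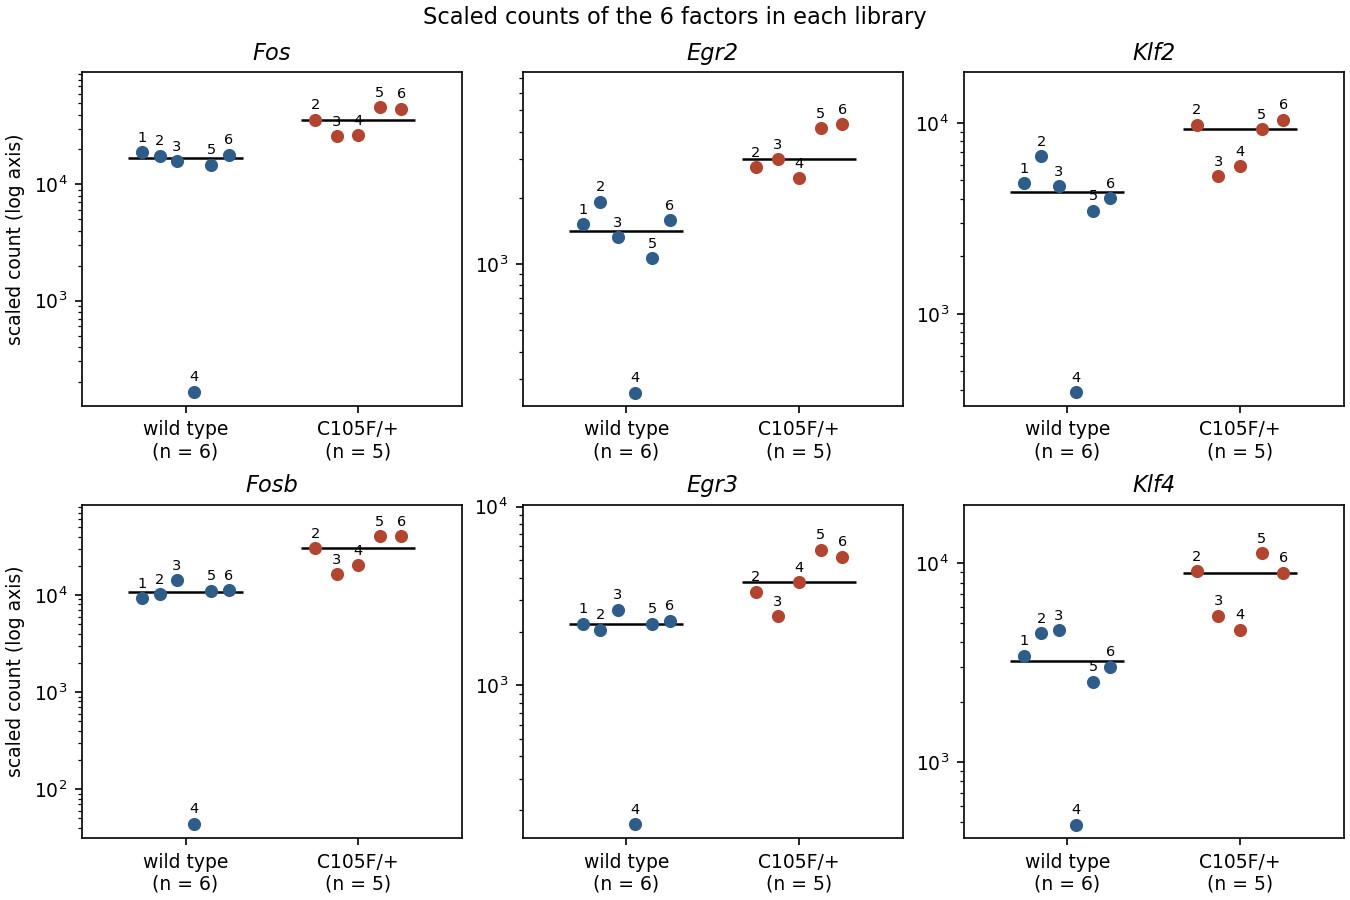
Scaled count of each gene (log axes) in 6 wild type and 5 C105F/+ libraries, 1 point per library with its replicate number, and a line at each group's median. Wild type 4 is the lowest point in every panel, and the C105F/+ points lie above all wild type points for Fos, Fosb, Egr2 and Klf4.

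Both genes of the FOS pair were higher in every C105F/+ library than in every wild type library. Fos, the classic immediate-early gene and a partner of JUN in AP-1, had 36061, 25926, 26532, 46483 and 44834 scaled counts in C105F/+ 2 to 6. In wild type 1 to 6 it had 18979, 17723, 15796, 164, 14776 and 18086. Every C105F/+ library lay above every wild type library, and 5 of the 6 wild type libraries lay close together, with wild type 4 far below them. The means were 35967 ± 9735 (SD, n = 5) and 14254 ± 7074 (SD, n = 6), or 17072 ± 1731 (SD, n = 5) for wild type without wild type 4. The log2 fold change in edgeR's quasi-likelihood fit was 1.34 (SE 0.68, adjusted p = 0.0707) with all libraries and 1.08 (SE 0.26, adjusted p = 0.00869) without wild type 4.

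Fosb, whose protein also joins JUN partners, showed the same arrangement. Its scaled counts in C105F/+ 2 to 6 were 30317, 16434.5, 20334, 40511 and 40024. In wild type 1 to 6 they were 9315, 10181, 14224, 44.0, 11087 and 11176. The groups did not overlap, although C105F/+ 3 lay only 1.16-fold above wild type 3. The means were 29524 ± 11038 (SD, n = 5) and 9338 ± 4846 (SD, n = 6), or 11197 ± 1854 without wild type 4. The log2 fold change was 1.66 (SE 0.76, edgeR adjusted p = 0.0534), and 1.40 (SE 0.30, edgeR adjusted p = 0.0076) without wild type 4. Fosb thus had the largest fold of the 6 genes in both fits, 3.16 and 2.64, while its spread within C105F/+ was also wide, at 2.46-fold from the lowest to the highest library.

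Of the EGR pair, Egr2 was separate between the genotypes and Egr3 was not. Egr2, induced through calcineurin and NFAT in lymphocytes, had 2765, 3002, 2462, 4156 and 4320.4 scaled counts in C105F/+ 2 to 6. In wild type 1 to 6 it had 1519, 1919.8, 1322, 261, 1067 and 1579.7. The groups did not overlap, and wild type 4 was again the lowest library. Egr2 was 2.61-fold higher in C105F/+ (3341 ± 843 against 1278 ± 573; log2 1.39, SE 0.42, edgeR adjusted p = 0.0295), and 2.26-fold without wild type 4 (adjusted p = 0.00869).

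Egr3, whose protein binds the same motif as EGR2, had 3346, 2436, 3787, 5745 and 5258 scaled counts in C105F/+ 2 to 6. In wild type 1 to 6 it had 2219, 2047, 2658, 167, 2208 and 2305. Here the groups overlapped, because C105F/+ 3 lay below wild type 3, and 4 of 5 C105F/+ libraries were above every wild type library. The means were 4114 ± 1368 and 1934 ± 889, a log2 fold change of 1.09 (SE 0.51, edgeR adjusted p = 0.0557). The wild type mean was 2287 ± 227 once wild type 4 was left out, and the fold was 1.80, under the 2-fold at which rows entered the table (edgeR adjusted p = 0.0193).

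The KLF pair came close to or into its wild type range in C105F/+ 3 and 4. Klf2, which drives homing receptor genes in lymphocytes, had 9786, 5238, 5916, 9255 and 10402 scaled counts in C105F/+ 2 to 6. In wild type 1 to 6 it had 4815, 6671, 4653, 389, 3472 and 4037. C105F/+ 3 and 4 lay below wild type 2, so 3 of 5 C105F/+ libraries were above every wild type library. Klf2 had the smallest fold of the 6 genes, 2.03 (8119 ± 2369 against 4006 ± 2076; log2 1.02, SE 0.51, edgeR adjusted p = 0.0656), and 1.72 without wild type 4 (adjusted p = 0.0291).

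Klf4, a factor of monocytes and barrier epithelia that is also used to reprogramme cells, had 9109.6, 5458, 4626, 11260.1 and 8966 scaled counts in C105F/+ 2 to 6. In wild type 1 to 6 it had 3424, 4447, 4608, 485, 2538 and 3020.4. The groups were only narrowly separate, with C105F/+ 4 at 4626 and wild type 3 at 4608. The fold was 2.55 (7884 ± 2765 against 3087 ± 1507; log2 1.35, SE 0.47, edgeR adjusted p = 0.0321), and 2.19 without wild type 4 (adjusted p = 0.00998).

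Taking the 6 genes side by side, edgeR's test called 2 of 6, Egr2 and Klf4, at an adjusted p under 0.05, where 52.5% of the 322 rows tested were called higher. Because the rows entered the table on this contrast, nothing is read from the comparison of these shares. Shares over all rows, here and below, also count rows that were lower in C105F/+. In the authors' test 253 of the 417 rows were higher and 164 lower, so the share among higher rows alone is larger. The call rested on single libraries in both directions. Without wild type 4 all 6 genes were called, where 55.1% of rows were called higher. None of the 6 was called when C105F/+ 2, 5 or 6 was left out, but these fits called few rows of any kind, 11 of 329, 13 of 328 and 17 of 328. The log2 fold changes there stayed at 1.28 to 1.45 for Egr2 and 1.19 to 1.30 for Klf4. Without C105F/+ 3, 4 of 6 were called, where 57.8% of rows were called higher. In the authors' deposited table, the adjusted p was 0.0236 for Egr2, 0.0624 for Klf4 and between 0.181 and 0.248 for the other genes. Thus 1 of 6 was under 0.05 there, where 29.8% of rows with an adjusted p were under it and higher. The groups did not overlap for 4 of 6 genes, where 42 of the 417 rows (10.1%) were separate in that direction. Only the 253 higher rows could be separate in that way. The unadjusted exact permutation p on log2(scaled count + 1) was 0.00433 for Fos, Fosb, Egr2 and Klf4, 0.00866 for Egr3 and 0.0216 for Klf2, and without wild type 4 it was 0.00794, 0.0159 and 0.0397 in the same order.

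The 6 folds had a median near that of the higher rows, and they ranked from 62 (Fosb) to 198 (Klf2) among the 322 rows tested. Their median log2 fold change was 1.34, against 1.37 over the higher rows tested and 1.11 over all rows tested. Of the called rows, 169 of 240 were higher in C105F/+. Scalings computed from the table's own rows reversed that split, so that most called rows were lower. Higher were 8 of 114 called rows with TMM and 12 of 103 with DESeq2 size factors. With these scalings 0 of 6 genes were called. With TMM the log2 fold change was 0.35 for Fos, 0.64 for Fosb, 0.44 for Egr2, 0.096 for Egr3, 0.0069 for Klf2 and 0.34 for Klf4. The median over all rows tested was 0.16 in that fit.

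**Figure D2:**
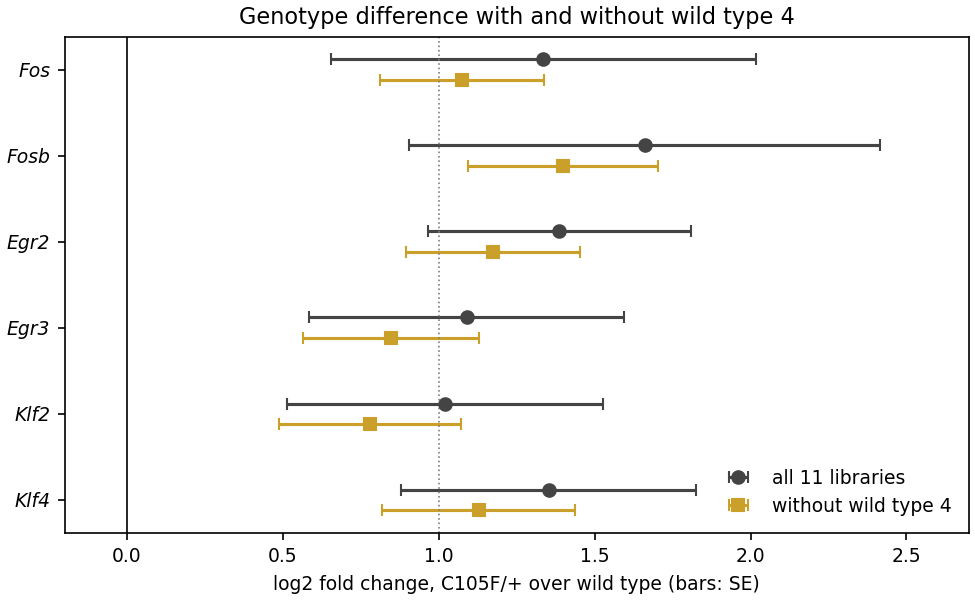
Fitted log2 fold change of each gene, C105F/+ over wild type, with all 11 libraries (circles) and without wild type 4 (squares), and bars of 1 SE. The dotted line marks 2-fold; without wild type 4 each estimate is lower and its SE smaller, and Egr3 (0.85) and Klf2 (0.78) lie below the line.

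C105F/+ libraries differed among themselves in how far they lay above wild type. In C105F/+ 2, 5 and 6 all 6 genes were above every wild type library, in C105F/+ 4 it was 5 genes and in C105F/+ 3 it was 4. The summed scaled count of the 6 genes was 91386 in C105F/+ 2, 58493 in C105F/+ 3, 63657 in C105F/+ 4, 117410 in C105F/+ 5 and 113805 in C105F/+ 6. The 5 wild type libraries other than wild type 4 held 35147 to 43261, and wild type 4 held 1509. The sums thus separated the groups, with C105F/+ 3 and 4 nearest to wild type.

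Wild type 4 had far less of all 6 messages, but by unequal factors. Each of the 6 genes was at its lowest there among the 11 libraries, as were 20.1% of all rows. The rows were selected on a contrast that includes wild type 4, and a low value there raises a gene's fold. Without it the folds of Egr3 (1.80) and Klf2 (1.72) were under 2. The share and the ranks below therefore describe rows whose selection favoured low values in wild type 4. Fosb was 252-fold lower than the median of the other 5 wild type libraries (42 counts), the strongest drop among the 236 rows ranked, and Fos was 108-fold lower (157 counts), the next in rank. Egr3 was 13.3-fold lower (rank 7), Klf2 12.0-fold (rank 10), Klf4 7.06-fold (rank 18) and Egr2 5.83-fold (rank 25). The factors of the FOS pair thus lay well above those of the other 4 genes. With 1 library there is no replicate of this pattern, and fewer cells that make these messages cannot be told apart from less message per cell.

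The make-up of the 6 genes' counts in wild type 4 was accordingly unlike that of any other library. The shares are read between libraries only, since counts also scale with gene length. FOS family messages made up 72.4% to 74.6% of the counts of the 6 genes in C105F/+ and 64.9% to 73.6% in the other wild type libraries, but 13.8% in wild type 4 (95% Wilson interval 12.1% to 15.7%, of 1441 counts, covering counting error only). The KLF pair held 57.9% there (55.3% to 60.4%), against 16.6% to 25.9% elsewhere. The EGR pair held 28.3% (26.05% to 30.7%), against 6.69% to 9.82% elsewhere. Fosb alone held 2.91% (2.16% to 3.92%), against 23.1% to 35.2% in the other 10 libraries. By FPKM, wild type 4 was also the only library in which Fos was not first; its order ran Klf2, Klf4, Egr2, Fos, Egr3, Fosb.

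**Figure D3:**
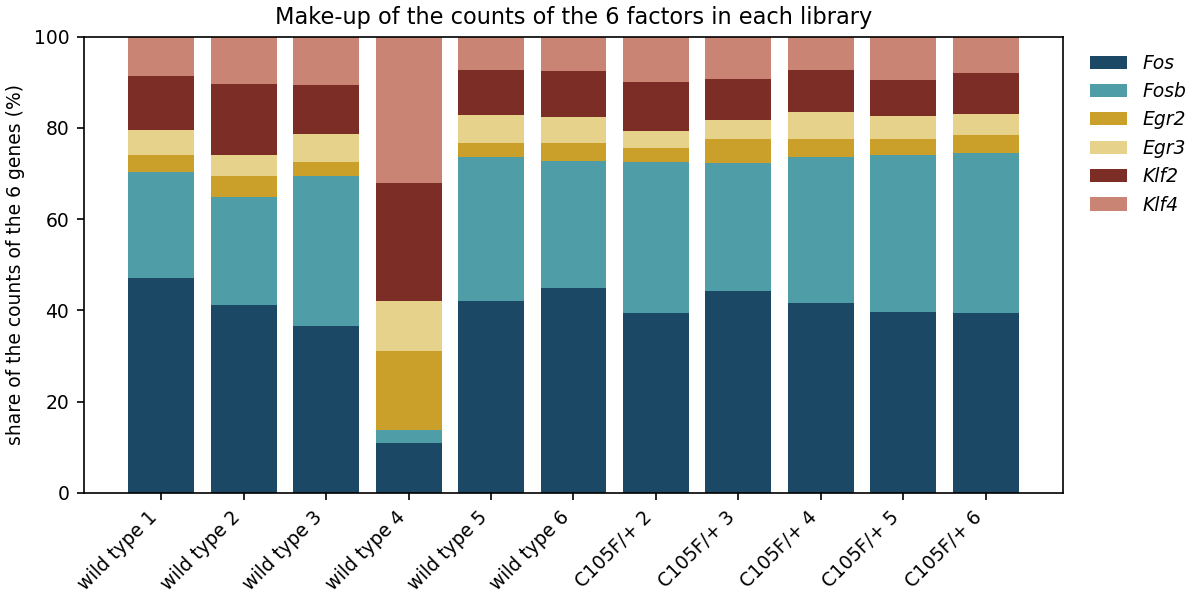
Share of the counts of the 6 genes taken by each gene (percent, stacked bars) in each of the 11 libraries. Fos and Fosb fill 64.9% to 74.6% of the bar in 10 libraries and 13.8% in wild type 4, where Klf2 and Klf4 fill 57.9%.

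Ratios between the genes within a library do not depend on the scaling of that library, and they were set against genotype for all 15 pairs. None of the 15 pairs passed an adjusted p of 0.05 (exact permutation over every assignment of 5 of the 11 libraries, two-sided, smallest adjusted p = 0.0649), and 2 had an unadjusted p under 0.05. The smallest two-sided p the design allows is 0.00433, and without wild type 4 it is 0.00794. With either set a single pair cannot pass the adjustment over the 15 pairs, so a lone differing ratio could not be called. Fosb over Egr3 had the smallest p, with log2 ratios of 2.42 to 3.18 in C105F/+, 2.07 to 2.42 in the wild type libraries other than wild type 4, and -1.91 in wild type 4. The ratio was above that of every wild type library in 5 of 5 C105F/+ libraries, by a mean of 1.24. Its exact permutation p of 0.00433 is the smallest the design allows (adjusted p = 0.0649). Without wild type 4 the difference was 0.54 (exact permutation p = 0.00794, adjusted p = 0.119). Fosb over Klf2 differed by 1.30 (exact permutation p = 0.0173, adjusted p = 0.13), and by 0.56 without wild type 4, the largest difference of the 15 pairs without that library. Fos over Fosb differed by -0.50 (exact permutation p = 0.0779), and by -0.29 without wild type 4 (exact permutation p = 0.143). SDs of the log2 ratios were 0.18 to 0.44 in C105F/+ and 0.13 to 0.46 in wild type without wild type 4.

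The 6 genes varied together within the genotypes. After subtraction of each genotype's mean on the log2 scale, Pearson's r between pairs was 0.93 to 0.99 over 11 libraries, a range set largely by wild type 4. Over the 10 other libraries it was 0.44 (Fosb and Egr2) to 0.88 (Fosb and Egr3), with 0.78 for Fos and Fosb and 0.86 for Klf2 and Klf4. These correlations describe libraries that share size factors, and no p is given. Of 230 other rows with a mean of at least 50 scaled counts, those most like the mean of the 6 genes over 11 libraries were Cd209c (r = 0.97), Pacsin1 (0.97), Itga8 (0.96) and Cdh5 (0.95). Cd209c had 0 counts in wild type 4 and 20.2 to 37.4 scaled counts in the remaining wild type group. Over the 10 libraries without wild type 4 the most alike were the receptor tyrosine kinase gene Epha2 (r = 0.97), the protein kinase C gene Prkca (0.96) and the kinase gene Dyrk3 (0.89). The genes named for the 11 and for the 10 libraries thus differed.

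Few other genes of the pathway have rows in the table. Of 32 FOS, JUN, ATF, EGR and KLF family genes listed, the 6 described here have rows. Of 41 other immediate-early and stress genes, Sik1 and Trib1 have rows, and both were called higher, where 52.5% of all rows tested were. Sik1, a CREB-induced kinase that feeds back on CREB coactivators, had 4728 to 10493 scaled counts in C105F/+, 2620 to 4325 in wild type other than library 4, and 1419 in wild type 4 (log2 1.35, SE 0.37, edgeR adjusted p = 0.0272; 1.2 and 0.00869 without wild type 4). Trib1, a pseudokinase, had 2393 to 6119, 1773 to 2389 and 714 in the same groups (log2 1.31, SE 0.38, edgeR adjusted p = 0.0289; 1.15 and 0.0095 without wild type 4). Both had their lowest value in wild type 4 and did not overlap between the genotypes, as 10.1% of all rows did not with C105F/+ higher, and Trib1 in C105F/+ 3 lay at 2393 beside 2389 in wild type 3. Of 28 listed genes of the signalling that leads to SRF, CREB and MEF2, 0 have rows, and they were not analysed here.

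Genes known downstream of these factors were as thinly represented. Of 15 listed genes tied to KLF2 or KLF4, 3 have rows and 2 were called higher with and without wild type 4, against 52.5% and 55.1% of all rows tested. Among them was Itgal, the alpha chain of the integrin LFA-1, with a log2 fold change of 1.09 (adjusted p = 0.0295, edgeR) and of 0.98 without wild type 4 (adjusted p = 0.0153). S1pr5, a receptor for sphingosine 1-phosphate, was at 1.23 (edgeR adjusted p = 0.0617), and at 1.008 without wild type 4 (adjusted p = 0.0794). Of 18 genes tied to EGR2, EGR3 or NFAT, Ctla4, an inhibitory receptor of T cells, has a row, and its log2 fold change was 2.15 (edgeR adjusted p = 0.0206), or 2.02 without wild type 4 (adjusted p = 0.00896), at 57.9 to 455 scaled counts in C105F/+ and 26.2 to 89.3 in wild type.

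Markers of other cell types that have rows were mostly higher in C105F/+ too, and their part in the levels of the 6 genes was not tested. Of the markers listed, 8 of 16 for B cells, 6 of 17 for plasma cells, 3 of 19 for T cells, 5 of 15 for NK cells, 4 of 15 for neutrophils and 3 of 20 for monocytes and macrophages have rows. By edgeR, 8, 6, 3, 2, 4 and 2 of these were called higher and 0 lower, where 52.5% of all rows tested, themselves selected on this contrast, were called higher. Without wild type 4 the counts were 8, 6, 3, 2, 3 and 2, where 55.1% of rows were. Of the basophil, eosinophil and mast cell markers 4 of 16 have rows (3 called higher and 1 lower, or 1 and 1 of the 2 still tested without wild type 4). Of the erythroid and platelet markers 3 of 15 have rows (2 called higher, or 1 without wild type 4). Summed plasma cell markers, led by Jchain, ran from 14519 (C105F/+ 3) to 202166 scaled counts in C105F/+ and from 16811 to 26065 in wild type. Summed B cell markers ran from 2112 (C105F/+ 3) to 13555 in C105F/+ and from 1710 to 5721 (wild type 4) in wild type. In C105F/+ 3 the plasma cell sum lay below every wild type library, the B cell sum within the wild type range and the T cell sum above it, and Fos, Fosb, Egr2 and Klf4 lay above every wild type library. Jchain made up most of that plasma cell sum (13489 of 14519), and single markers differed. In C105F/+ 3 Sdc1 (333) lay above all wild type libraries but wild type 4, and Cr2 (210) above every wild type library. Others, such as Mzb1 (365), lay below every wild type library. C105F/+ 2, 5 and 6 held the highest sums of B cell, plasma cell and neutrophil markers and also the highest sums of the 6 genes. Neutrophil markers summed to 704 to 5582 scaled counts in C105F/+ and 578 to 1128 in wild type, and T cell markers to 193 (C105F/+ 3) to 897 against 102 to 178, without overlap. NK cell markers summed to 257 to 1840.3 against 212 to 798. Ncr1, a receptor that defines NK cells, was at 0 in 5 of 6 wild type libraries and in C105F/+ 3. It was at 13.1 to 91.4 scaled counts in C105F/+ 2, 4, 5 and 6, and edgeR did not test it.

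Other lists with rows moved with wild type 4. The sum of Itgae and Pacsin1, genes of conventional and plasmacytoid dendritic cells respectively, was 168 in wild type 4, beside 1079 to 1471 in the rest of wild type and 1454 to 4885 in C105F/+. Of 15 endothelial and stromal markers listed, the endothelial genes Cdh5 and Flt1 have rows. They summed to 128 in wild type 4, beside 380 to 793 in the rest of wild type and 569 to 1690 in C105F/+. Both were called higher in C105F/+ with and without wild type 4, as were Itgae and Pacsin1. Of all rows tested, 52.5% and 55.1% were called higher in these fits. The 3 monocyte and macrophage genes with rows summed to 559 in wild type 4, against 2355 to 6897 and 2673 to 13111. Ace and Cd300e were low there, while F13a1 (70.2) stayed in the range of the other wild type libraries (33.2 to 158). B cell markers went the other way, at 5721 in wild type 4 beside 1710 to 2396 in the rest of wild type. Within that list Cr2, Fcer2a and Fcrla stayed in the range of the other wild type libraries. Erythroid and platelet markers summed to 212 in wild type 4, beside 499 to 1441 in the rest of wild type, and basophil, eosinophil and mast cell markers to 1284, beside 340 to 641. In the latter list the 1 marker lower in C105F/+ stayed in range. Plasma and NK cell sums also stayed in range, although Sdc1 (1290 beside 196 to 303), Mzb1 (1271 beside 565 to 956) and Il2rb (231 beside 13.4 to 44.7) were higher. Other genes of these 2 lists, Jchain and S1pr5 among them, were lower. The low values of the 6 genes in wild type 4 thus went with lower sums for dendritic, monocyte, endothelial and erythroid genes and higher sums for B cell and for basophil, eosinophil and mast cell genes, and the part of these in the drop was not tested.

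**Figure D4:**
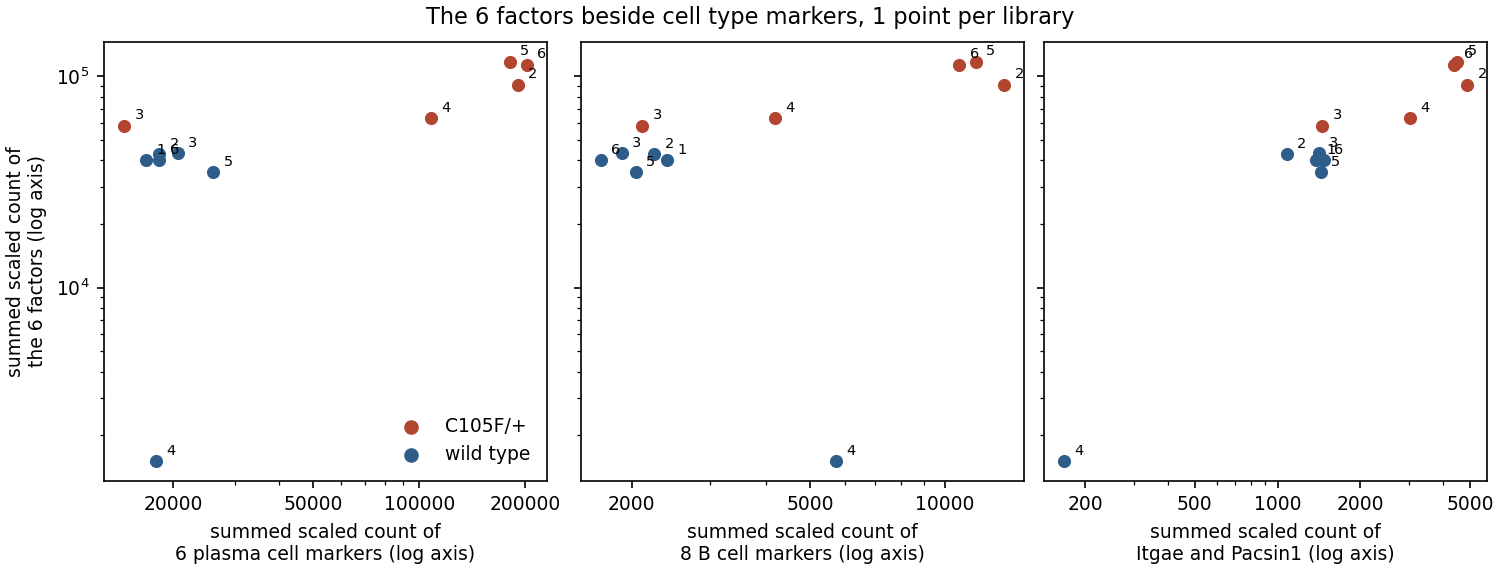
Summed scaled count of the 6 genes (y axis, log) against the summed scaled counts of 6 plasma cell markers, 8 B cell markers, and Itgae with Pacsin1 (x axes, log), 1 numbered point per library. C105F/+ 3 has a plasma cell sum of 14519, a B cell sum of 2112 and 58493 scaled counts of the 6 genes, and wild type 4 is the lowest library for Itgae with Pacsin1 but not for the other marker sums.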

How the data were processed

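RNA of 5 C105F/+ and 6 wild type libraries was sequenced from oligo(dT)-selected RNA (75 ng input, directional kit, per the labels' protocols). The submitters' processing notes name build mm10, DESeq2, StringTie 2.1.3b, the aligners HISAT2 2.1.0 and Bowtie2 2.3.4.1, Trimmomatic 0.38 and FastQC 0.11.7; settings and strand of counting are not given in the sources used here. The authors deposited 1 table of 417 selected genes. It holds read counts without normalization and FPKM per library, per the file headers. The authors also deposited log2 normalized values, whose transformation is not given, a mean over all libraries (a signal on the scale of scaled counts), a log2 fold change with its standard error, a signed fold, a score equal to log2 fold over standard error, and a p-value and adjusted p-value.

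Size factors were recovered from the counts and the deposited mean (relative error below 1e-08). edgeR 4.0.16 in R 4.3.3 gave the test of the counts: quasi-likelihood, genotype only, edgeR's filter on low counts, Benjamini-Hochberg over the 322 rows left, which hold all 6 genes. The adjustment covers selected rows only. Exact two-sided permutation tests used log2(scaled count + 1) and, for ratios, log2((a + 0.5)/(b + 0.5)); levels used log2(FPKM + 0.1). Scripts were tested on simulated data. Same-numbered libraries were not paired by the labels. No 2 libraries repeated each other. The labels do not tie each library to a separate animal, and p-values then measure only the spread between libraries, which may be technical. All 6 genes are named; other genes are the 4 most alike in each of 2 library sets and at most 3 by level from each of 15 lists. Of these genes, 1 is not reported here. The 6 genes, the lists and the motifs were chosen with earlier results of these data known. DESeq2 1.42.0, limma 3.58.1, other scalings and leaving out each library were alternatives.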

Additional observations from a re-analysis of the deposited data

Results flagged for a closer look

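Of 42 sets of values examined (the 6 scaled counts and the 15 log2 ratios in each genotype), 12 held a library whose gap to its nearest neighbour was too large a part of the range by Dixon's criterion, where chance gives about 1 in 20. In all 12 that library was wild type 4. The scaled counts there were 164 for Fos, 44.0 for Fosb and 167 for Egr3. The log2 ratios of Fos were -0.66 to Egr2, -0.0182 to Egr3, -1.24 to Klf2 and -1.56 to Klf4. Those of Fosb were -2.55 to Egr2, -1.91 to Egr3, -3.13 to Klf2 and -3.45 to Klf4, and the log2 ratio of Egr2 to Klf2 was -0.57. These sets share libraries and genes and are not independent, and the genes were selected on a contrast that includes wild type 4.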

How the results depend on the processing

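The number of the 6 genes called between genotypes was 2. It was 0 with TMM and 0 with DESeq2 size factors on the rows of the table, 5 with a scaling implied by FPKM (59.9% of rows tested called higher), 4 with the DESeq2 Wald test (55.4%), 4 with limma on the authors' log2 values (47.7%), and 2 without the filter (47.2%). Leaving out 1 library gave 0 to 6. With a replicate block over numbers 2 to 6 it was 0; that fit called 0 of 315 rows, with 166 at an unadjusted p under 0.05. Same-numbered libraries correlated at -0.23 to 0.22, 1 of 5 pairs over 0.1 and 1 of 5 best with its own number. The labels give no day or batch, so whether these libraries share more than a number could not be checked. The median log2 fold change over the rows tested moved from 1.11 to 0.16 with TMM, 0.36 with DESeq2 size factors and 1.29 with the FPKM scaling; the first 2 centre on selected rows by construction. Egr2 and Klf4 each lost the call in 6 of 18 alternatives. In the block and without C105F/+ 2, 5 or 6 their log2 fold changes were 1.28 to 1.65 and 1.19 to 1.64, while with TMM and DESeq2 size factors they were 0.44 and 0.67 for Egr2 and 0.34 and 0.56 for Klf4. Of the 5 neighbouring pairs in the FPKM order 0 passed, and 3 did over all 11 libraries, which lowers the smallest possible p; with a wild type library left out none could pass. The 15 ratios gave 0 calls with FPKM, the authors' log2 values and another pseudocount. A single pair could not pass with all 11 libraries, with the block (smallest p 0.0625) or with 1 library left out. The groups did not overlap for 4 genes on FPKM too, an alternative chosen after the data were seen; leaving out a library can only raise that count. Wild type 4 has a size factor within the range of the others (0.955), and total depth is unknown.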
